A study of Rattus norvegicus with 10 samples.

Results

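Assembly factors of the respiratory complexes are proteins that help to build the enzymes of oxidative phosphorylation and are not part of the finished enzyme. A list of 42 such factors was examined, and the 39 for which a probe set was named were measured, out of 14217 named genes in all. The measured factors comprise 11 of complex I, 4 of complex II, 6 of complex III, 15 of complex IV and 3 of complex V, the ATP synthase. No probe set of the table used was named for Ndufaf2, Ndufaf6 or Sco2, which were not analysed here. No filter on low values was applied, so every measured factor was tested.

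The samples were hearts of male rats of the inbred strain Fischer-344, much used in research on aging, which were fed standard chow and otherwise untreated, and RNA was hybridised to expression arrays. The Young samples came from rats of 6 months (adult, n = 5) and the Old samples from rats of 24 months (aged, n = 5). The sample protocols name the whole heart and the series text the ventricles, so the presence of atria is not settled. The labels do not state that each array is a separate animal, and each p-value rests on the spread among these samples alone, which may be technical.

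Each respiratory complex is put together from many subunits, some encoded in the nucleus and some in mitochondrial DNA, together with heme, copper, flavin and iron-sulfur cofactors. Assembly factors stabilise intermediates, insert the cofactors, modify subunits or regulate the making of the mitochondrially encoded core. In heart muscle, which draws most of its ATP from oxidative phosphorylation, inherited defects of several of these factors are known to cause cardiomyopathy.

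All values per array are log2 values relative to the median of the 10 arrays for each probe set, and hold no absolute level. A gene with several probe sets is given as their mean, so its own median can differ from 0. Differences between the ages are log2 differences, aged minus adult, with the standard error (SE) of the limma fit, and a factor is said to have fallen where the Benjamini-Hochberg adjusted p over all 14217 genes was under 0.05. All 13 measured cardiomyocyte markers had a probe set in the brightest of 3 brightness classes (inferred from how finely the values are stepped), against 19.4% of all genes and 19 of 39 factors (48.7%). Aged replicate 3 stood apart. It was the lowest of the 10 arrays for 20 of the 39 factors (51.3%), against 15.3% of all genes, 30.3% of the genes with a probe set in the brightest class and 52.6% of 76 nuclear-encoded subunits of the complexes. Adult replicate 2 had the highest adipocyte marker mean, at 1.13 against -0.23 to 0.13 on the other 9 arrays.

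Of the 39 factors, 6 fell in aged hearts and none rose in the limma fit, and 11 were lower and 0 higher at an unadjusted p under 0.05, where 12% of all genes were lower and 14.3% higher. The 6 were Ecsit and Ndufaf3 of complex I, Sdhaf2 of complex II, Uqcc1 and Bcs1l of complex III, and Cox10 of complex IV. The 6 are 15.4% of the factors, where at the adjusted threshold 5.09% of all genes were called lower and 6.77% higher. Means were lower in aged hearts for 29 of the 39 factors (74.4%), against 51.8% of all genes. The median difference was -0.09 over the factors and -0.01 over all genes. Among the 33 factors that did not pass, differences ran from -0.20 to 0.23. Every aged array lay below every adult array for 3 of the 39 factors, Ecsit, Uqcc1 and Sdhaf2. That share is near the 4.78% of all genes that showed this. Without aged replicate 3 the same 6 factors passed, with a median difference of -0.06 over all 39. Without aged replicates 3 and 6 together, 2 passed, Ecsit and Uqcc1, and the median was -0.03. Without adult replicate 3, 3 passed (Ecsit, Uqcc1 and Sdhaf2), and without adult replicate 2 those 3 and Ndufaf3.

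**Figure D1:**
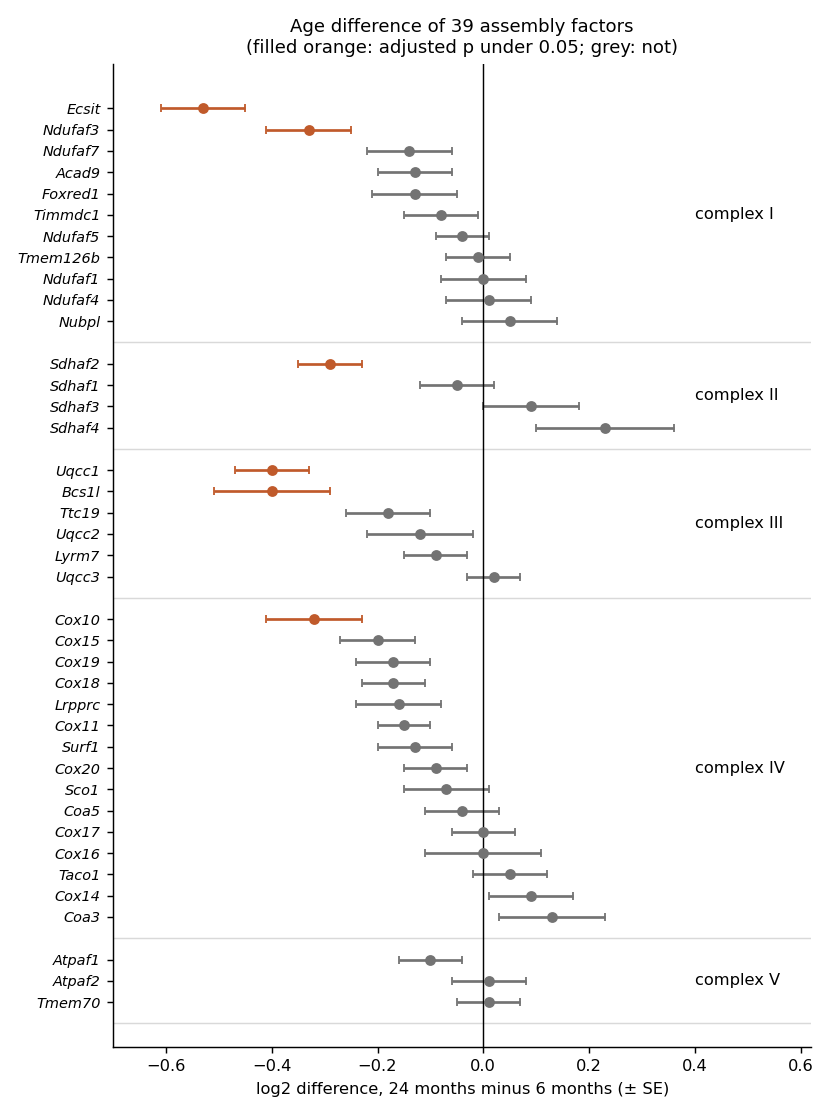
Log2 difference between 24 and 6 months (x axis, ± SE, n = 5 per age) for each of the 39 measured factors, ordered within the complex that it assembles. The 6 factors in orange had an adjusted p under 0.05, all lie left of 0, and Ecsit lies farthest left at -0.53.

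Complex I, the NADH dehydrogenase, is built from separate modules of its membrane arm and its matrix arm. Ecsit belongs to the mitochondrial complex I intermediate assembly complex (MCIA), which joins parts of the membrane arm, and also acts as an adaptor in innate immune signalling. In adult hearts the Ecsit values were 0.16, 0.27, 0.39, 0.09 and 0.25 in replicates 1, 2, 3, 4 and 6. In aged hearts they were -0.20, -0.54, -0.09, -0.39 and -0.29 in replicates 2, 3, 4, 5 and 6. The ages did not overlap, with aged replicate 4 closest to the adult range and aged replicate 3 farthest from it. Ecsit fell by 30.9% (log2 -0.53 ± 0.08 SE, limma adjusted p = 0.00267), the largest difference among the 39 factors. It passed under all 21 other settings, where the difference ranged from -0.59 to -0.46. Other probe-set rules, which are among these settings, could not change the difference of Ecsit.

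The other 4 factors of that intermediate among the 39 did not pass, whereas Tmem186, a further member that belongs to another list described later, did. Acad9, a protein of the acyl-CoA dehydrogenase family that serves there as a scaffold, differed by -0.13 ± 0.07 SE (adjusted p = 0.290). Timmdc1, a membrane protein of the intermediate, differed by -0.08 ± 0.07 SE (0.501). Tmem126b, another membrane protein, differed by -0.01 ± 0.06 SE (0.930). Ndufaf1, which binds the intermediate early, gave 0.00 ± 0.08 SE (0.989). All 5 factors of this group had a mean at or below that of adult hearts. Whether Ecsit differed from its partners was not tested.

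Ndufaf3 and Ndufaf4 bind one another and act on the early matrix arm. For Ndufaf3 the adult values were 0.21, 0.13, 0.24, -0.01 and 0.20 in replicates 1, 2, 3, 4 and 6. The aged values were 0.01, -0.45, -0.18, -0.10 and -0.15 in replicates 2 to 6. The ages overlapped through adult replicate 4 and aged replicate 2, and aged replicate 3 was again the lowest. Ndufaf3 fell by 20.4% (-0.33 ± 0.08 SE, adjusted p = 0.0212), or by 0.26 on the log2 scale without aged replicate 3 (0.0218). The call was lost without adult replicate 3 (0.0577). Ndufaf4 differed by 0.01 ± 0.08 SE (adjusted p = 0.957), with its lowest value, -0.34, also in aged replicate 3. Whether the binding partners differed from each other was not tested.

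Factors that modify complex I subunits or supply cofactors did not pass. Ndufaf7, which methylates an arginine of a core subunit, differed by -0.14 ± 0.08 SE (adjusted p = 0.283). Ndufaf5, which hydroxylates an arginine of another core subunit, differed by -0.04 ± 0.05 SE (0.668). Nubpl, which delivers iron-sulfur clusters, differed by 0.05 ± 0.09 SE (0.793). The oxidoreductase-like Foxred1 differed by -0.13 ± 0.08 SE (0.3). In all, 2 of the 11 complex I factors fell (18.2%, where 5.09% of all genes did), 9 had lower means and the median difference was -0.08.

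Complex II, the succinate dehydrogenase, has 4 dedicated factors. Sdhaf2 is needed for attachment of the flavin cofactor to the catalytic subunit Sdha. Adult values of Sdhaf2 were 0.09, 0.25, 0.13, 0.05 and 0.17 in replicates 1, 2, 3, 4 and 6. Aged values were 0.05, -0.17, -0.11, -0.28 and -0.22 in replicates 2 to 6. Aged replicate 2 lay just below adult replicate 4, by 0.00212 on the log2 scale, and the other aged arrays were all below 0. Sdhaf2 fell by 18% (-0.29 ± 0.06 SE, adjusted p = 0.0149). It has 2 probe sets, at -0.33 (adjusted p over probe sets 0.0253) and -0.25 (0.0696). Across the 10 arrays it was aged replicate 5, not 3, that was lowest.

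The remaining complex II factors did not pass and differed in sign. Sdhaf4, which acts on the flavin-bearing Sdha, had the most positive difference of the 39 factors, 0.23 ± 0.13 SE (adjusted p = 0.278). Its aged values spread from -0.37 in replicate 3 to 0.33 in replicate 2, and the adult values from -0.47 in replicate 4 to 0.02 in replicate 1. Sdhaf1 and Sdhaf3, which both guard the iron-sulfur subunit, differed by -0.05 ± 0.07 SE (0.709) and 0.09 ± 0.09 SE (0.566). Of the 4 complex II factors 1 fell (25%, where 5.09% of all genes did) and 2 had lower means. The complex II median was 0.02, or 0.07 without aged replicate 3.

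Complex III, the cytochrome bc1 complex, is built around the mitochondrially encoded cytochrome b. Uqcc1 binds newly made cytochrome b together with Uqcc2. In adult hearts Uqcc1 was at 0.12, 0.20, 0.13, 0.15 and 0.08 in replicates 1, 2, 3, 4 and 6, the narrowest adult spread of the 6 fallen factors (SD 0.04). Aged values were -0.07, -0.49, -0.12, -0.33 and -0.31 in replicates 2 to 6. The ages did not overlap, and the aged group held a higher pair, replicates 2 and 4, and 3 lower arrays. Uqcc1 fell by 24.2% (-0.40 ± 0.07 SE, adjusted p = 0.00565) and passed under all 21 other settings. The probe-set rules among these settings could not change the difference of Uqcc1. Its 2 probe sets passed singly, at -0.41 (adjusted p over probe sets 0.0034) and -0.38 (0.0164). Uqcc2 differed by -0.12 ± 0.10 SE (0.461), and Uqcc3, which acts at the same stage, by 0.02 ± 0.05 SE (0.879).

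Insertion of the iron-sulfur Rieske subunit is a late step of complex III assembly. Bcs1l is the ATPase that moves the folded Rieske protein across the inner membrane. Adult values of Bcs1l were 0.25, -0.01, 0.13, 0.02 and 0.06 in replicates 1, 2, 3, 4 and 6. Aged values were 0.01, -0.72, -0.35, -0.19 and -0.32 in replicates 2 to 6. Aged replicate 2 lay among the adult arrays, and aged replicate 3 held the lowest value of any factor on any array. Bcs1l fell by 24.4% (-0.40 ± 0.11 SE, adjusted p = 0.0320). The difference was -0.30 without aged replicate 3 (0.0302). Bcs1l no longer passed when adult replicate 1 (0.0699), 2 (0.0518), 3 (0.0748) or 6 (0.0567) was left out, nor without aged replicate 4 (0.0594) or 6 (0.0650). Lyrm7, which chaperones the Rieske protein in the matrix, differed by -0.09 ± 0.06 SE (0.360), from 1 probe set of the dimmest class. Ttc19, which clears cleaved Rieske fragments, differed by -0.18 ± 0.08 SE (0.162). In complex III, 2 of 6 factors fell (33.3%, where 5.09% of all genes did). The complex III median was the lowest of the 5 groups, -0.15, and -0.08 without aged replicates 3 and 6. Whether the complexes differed from one another was not tested.

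**Figure D2:**
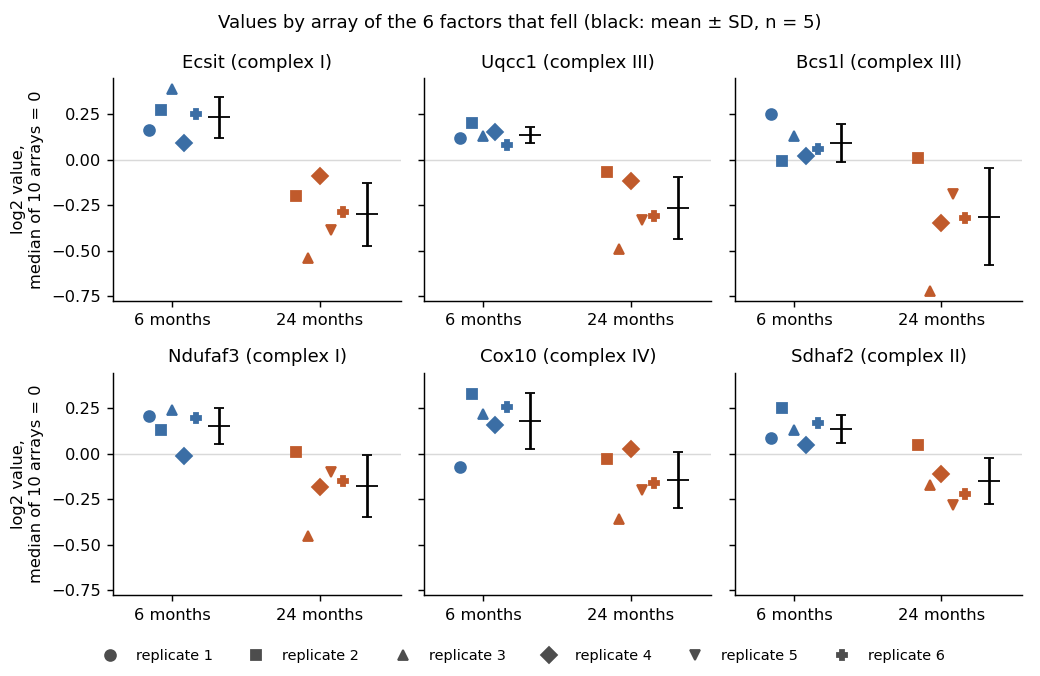
Log2 values on each array (y axis, relative to the median of the 10 arrays) for the 6 factors that fell, with adult arrays in blue, aged arrays in orange, a symbol for each replicate number and the mean ± SD of each age in black (n = 5). Aged replicate 3 is the lowest aged array in each panel but that of Sdhaf2, and aged replicate 2 lies within 0.01 of the lowest adult array or above it for Bcs1l, Ndufaf3, Cox10 and Sdhaf2.

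The promoters of Ecsit, Uqcc1 and Sdhaf2, the factors whose ages did not overlap, are shown because they share a short sequence element. Each is 300 bases of RefSeq on build GRCr8, from 250 bases before to 50 bases after the start that the table uses for the gene, written 5′ to 3′ in the direction of the gene. Capitals mark CCGGAAG, a core of sites bound by GABPA (nuclear respiratory factor 2) and other ETS factors, or its reverse complement CTTCCGG.
Ecsit (chr8:28894317-28894616, minus strand): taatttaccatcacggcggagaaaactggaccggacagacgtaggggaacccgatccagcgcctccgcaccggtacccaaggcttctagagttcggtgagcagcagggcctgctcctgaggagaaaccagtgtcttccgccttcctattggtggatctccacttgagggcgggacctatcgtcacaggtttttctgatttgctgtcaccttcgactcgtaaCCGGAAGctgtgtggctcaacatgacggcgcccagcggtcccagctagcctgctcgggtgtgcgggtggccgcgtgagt
Uqcc1 (chr3:164905729-164906028, minus strand): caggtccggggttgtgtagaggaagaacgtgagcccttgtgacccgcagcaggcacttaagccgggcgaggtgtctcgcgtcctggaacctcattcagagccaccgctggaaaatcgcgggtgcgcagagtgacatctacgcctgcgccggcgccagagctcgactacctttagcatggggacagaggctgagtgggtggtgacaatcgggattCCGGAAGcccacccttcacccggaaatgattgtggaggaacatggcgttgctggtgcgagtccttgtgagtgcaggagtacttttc
Sdhaf2 (chr1:216592619-216592918, minus strand): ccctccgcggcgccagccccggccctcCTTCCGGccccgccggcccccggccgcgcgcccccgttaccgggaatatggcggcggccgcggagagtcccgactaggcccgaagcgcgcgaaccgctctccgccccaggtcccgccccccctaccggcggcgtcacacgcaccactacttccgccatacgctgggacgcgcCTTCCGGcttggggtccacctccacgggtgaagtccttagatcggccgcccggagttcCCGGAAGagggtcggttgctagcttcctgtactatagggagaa
The match begins 29 bases before the start used in the promoter table in Ecsit and 36 bases before it in Uqcc1, and Sdhaf2 holds 3 matches. These starts lie 77, 114 and 209 bases inside the annotated extent of Ecsit, Uqcc1 and Sdhaf2, so the matches of Ecsit and Uqcc1 are within the gene as annotated. No match was found in these windows of Ndufaf3, Bcs1l or Cox10, which says only that these letters are not there. Of the 36 factors whose promoter is in the table, 13 (36.1%) held the letters on either strand, among them 10 factors that did not fall. The share was 15.1% of the promoters of 11700 genes on the array and 9.22% of all 27457 promoters. The G and C content was also higher in the factors' promoters (median 59.7%) than in all promoters (52.3%), and its part in the shares was not tested. Other elements searched on both strands, overlaps with CCGGAAG not removed, were CGCATGCG of NRF1 (11.1% of factor promoters, 3.09% of those of array genes, 1.81% of all), AAGATGG of YY1 (11.1%, 7.84% and 7.3%) and CCAAT of NF-Y (33.3%, 37.3% and 37.7%). TGACGTCA of CREB was in 5.56% of factor promoters, against 2.85% and 1.91%. TNAAGGTCA of the estrogen-related receptors was in 0 of the 36, against 0.675% and 1.15%.

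Complex IV, the cytochrome c oxidase, has the most factors, and they are grouped here by what they supply. Heme A, its particular heme, is made from heme b by Cox10 and then Cox15. Adult values of Cox10 were -0.07, 0.33, 0.22, 0.16 and 0.26 in replicates 1, 2, 3, 4 and 6. Aged values were -0.03, -0.36, 0.03, -0.20 and -0.16 in replicates 2 to 6. Adult replicate 1 lay below aged replicates 2 and 4, and the other 4 adult arrays were above all aged arrays. Cox10 fell by 20.1% (-0.32 ± 0.09 SE, adjusted p = 0.0291). Cox10 no longer passed when adult replicate 2 (0.0751), 3 (0.0707), 4 (0.0523) or 6 (0.0649) was left out, nor without aged replicate 5 (0.0737) or 6 (0.0611). Cox15 did not pass (-0.20 ± 0.07 SE, adjusted p = 0.0957), and its 3 probe sets gave -0.40, -0.25 and 0.06.

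Copper reaches complex IV through a relay that starts with the small carrier Cox17. None of the 5 measured factors of this group passed, and all had a mean at or below that of adult hearts. Cox17 gave 0.00 ± 0.06 SE (adjusted p = 0.997). Sco1, which hands copper to the COX2 subunit, differed by -0.07 ± 0.08 SE (0.631). Cox11, which serves the copper site of COX1, differed by -0.15 ± 0.05 SE (0.0772) and passed without adult replicate 6 (0.0453). Cox19, which works with Cox11, differed by -0.17 ± 0.07 SE (0.144). The 2 probe sets of Cox19 disagreed, with 0.00 ± 0.07 SE in 1 and -0.35 ± 0.09 SE in the other (adjusted p over probe sets 0.994 and 0.0323). Coa5, a small cysteine-motif protein, gave -0.04 ± 0.07 SE (0.775), with probe sets at -0.16 and 0.08.

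**Figure D3:**
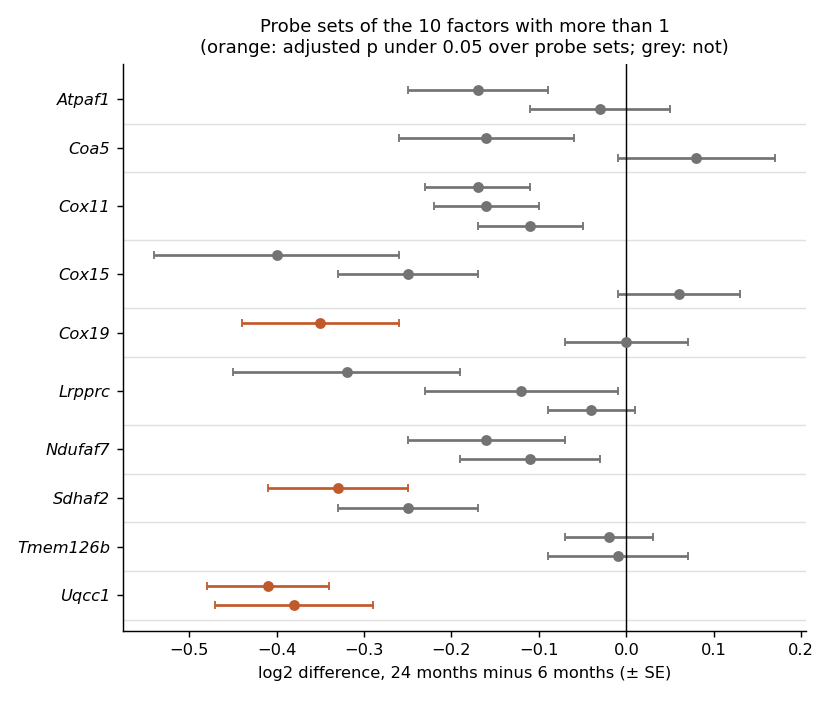
Log2 difference between 24 and 6 months (x axis, ± SE, n = 5 per age) for each probe set of the 10 factors that have more than 1. The probe sets of Uqcc1 lie together at -0.41 and -0.38, whereas those of Cox15 run from -0.40 to 0.06 and those of Cox19 from -0.35 to 0.00.

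Over all 52 probe sets of the factors, 8 were called lower and none higher (15.4%, where 3.6% of all 31042 probe sets were called lower). They were those of Ecsit, Ndufaf3, Bcs1l and Cox10, both of Uqcc1, and 1 each of Sdhaf2 and Cox19.

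Factors for the mitochondrially encoded core subunits of complex IV did not pass either. For COX1, the mRNA-binding protein Lrpprc, which stabilises mitochondrial transcripts, differed by -0.16 ± 0.08 SE (adjusted p = 0.2). Lrpprc has 3 probe sets, at -0.32, -0.12 and -0.04, none of them called. Its value of 0.15 in aged replicate 2 lay above the other aged arrays, which were between -0.18 and -0.09, and it passed without that array (0.0457). Surf1, which helps in maturation of COX1, differed by -0.13 ± 0.07 SE (0.288) and likewise passed without aged replicate 2 (0.0460). Cox14, Coa3 and the translational activator Taco1, which act on the synthesis of COX1, had small positive differences of 0.09 ± 0.08 SE (0.511), 0.13 ± 0.10 SE (0.467) and 0.05 ± 0.07 SE (0.658). For COX2, the insertase Cox18 differed by -0.17 ± 0.06 SE (0.0894) and passed without aged replicate 4 (0.0350). The COX2 chaperones Cox20 and Cox16 gave -0.09 ± 0.06 SE (0.385) and 0.00 ± 0.11 SE (0.985). In sum 1 of 15 complex IV factors fell (6.67%, close to the 5.09% of all genes), while 12 had lower means and the median was -0.09.

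None of the 3 factors of ATP synthase passed. Atpaf1 is a chaperone of the catalytic beta subunit. Its adult values were 0.06, 0.08, 0.02, -0.01 and 0.06 in replicates 1, 2, 3, 4 and 6. Its aged values were 0.09, -0.24, 0.06, -0.11 and -0.10 in replicates 2 to 6, so that aged arrays lay on either side of the adult range. The difference was -0.10 ± 0.06 SE (adjusted p = 0.358). Atpaf2, the chaperone of the alpha subunit, gave 0.01 ± 0.07 SE (0.944). Tmem70, which helps to build the membrane ring, gave 0.01 ± 0.06 SE (0.960) and had its highest value, 0.19, in aged replicate 3.

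Across arrays the factors shared a pattern that only in part followed age. The median over the 39 factors was 0.09, 0.02, 0.03, -0.01 and 0.06 in adult replicates 1, 2, 3, 4 and 6. It was 0.04, -0.17, -0.01, -0.02 and -0.09 in aged replicates 2 to 6. Aged replicate 2 thus lay among the adult arrays, adult replicate 4 among the aged ones, and aged replicates 3 and 6 were the lowest. In aged replicate 3, 36 of the 39 factors had a value below 0, and in aged replicate 6, 30 had. In adult replicate 1, 5 were below 0 and 13 factors had their highest value. The median over all genes lay between -0.02 and 0.01 on the same arrays.

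**Figure D4:**
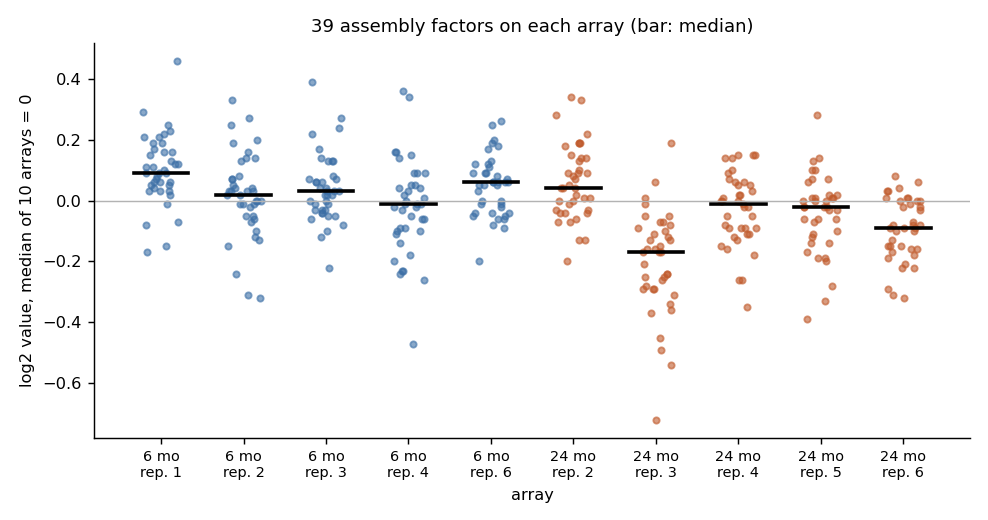
Log2 values of the 39 factors (points, y axis, relative to the median of the 10 arrays) on each array (x axis), with the median over factors as a bar. The bar is lowest in aged replicate 3, at -0.17, and highest in adult replicate 1, at 0.09, while aged replicate 2, at 0.04, lies within the adult range.

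Markers of other heart cells moved over the same arrays. The mean log2 value of 11 measured macrophage markers ran from -0.42 to 0.00 in adult and from 0.02 to 1.03 in aged hearts, and 5 of them rose, with the smallest p in the scavenger receptor Cd163, the complement gene C1qa and the mannose receptor Mrc1. Fibroblast markers (10, of which 6 rose, with the smallest p in Dpt, Postn and Fbln1) ran from -0.45 to -0.02 and from 0.07 to 0.55. Lymphocyte markers (12, 3 risen: Gzma, Klrd1 and Ptprc) ran from -0.30 to 0.02 and from 0.04 to 0.58, with the highest mean in aged replicate 3 and the next, 0.45, in aged replicate 6. In aged replicate 3 the highest of these markers were the cytotoxic-cell genes Gzma (3.38), Nkg7 (1.87) and Klrd1 (1.41). T cell genes lay on both sides of 0 there. Cd8a and Cd2 were at 0.85 and 0.29, and Cd3e and Cd3g of the T cell receptor complex at -0.22 and -0.46. Of the 12 lymphocyte markers, 5 had lower means in aged hearts, Cd3d, Cd2, Cd4, Cd8b and Cd79b. Cardiomyocyte markers (13, of which Myh6, Actn2, Ryr2 and Ckm fell and Myh7 rose) ran from 0.01 to 0.21 and from -0.27 to 0.03, with the lowest mean in aged replicate 3. The other 8 cardiomyocyte markers were not called, and the median difference of that list was -0.12, with Myh6 lowest at -1.24. Atrial markers (6, of which Nppa rose by 2.69 and Myl7 by 1.45) ran from -0.72 to -0.22 and from 0.13 to 0.56. The other 4 atrial markers were not called, and the median difference of the list was 0.21. Endothelial markers (9, 2 risen, Tek by 0.35 and Vwf by 0.94) ran from -0.08 to 0.02 and from 0.02 to 0.20, while 5 of the 9 had lower means and the median difference of the list was -0.01. Among the aged arrays, replicate 3 had the lowest macrophage (0.02), fibroblast (0.07) and atrial (0.13) means and the highest endothelial mean (0.20). Smooth muscle and pericyte (9, 1 risen and 1 fallen), adipocyte (6, none called) and erythrocyte markers (3, none called) overlapped between the ages. The table keeps no absolute level, so no marker can be said to be at 0. In whole tissue, fewer cells of a type and less RNA per cell cannot be told apart. The part of these markers in the differences of the factors was not tested.

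The factors were also set beside the nuclear-encoded subunits of the enzymes that they build, of which 16 of 76 (21.1%) fell and none rose (limma, with 0 higher also at an unadjusted p under 0.05). Of all genes, 5.09% fell and 6.77% rose. Subunits of complex I had 6 of 34 fallen, with the smallest p in Ndufv1 (-0.35), Ndufs1 (-0.38) and Ndufb7 (-0.30), and a median of -0.09, where its factors had 2 of 11 and -0.08. For complex II it was 1 of 4 subunits, Sdha, with a median of -0.15, and 1 of 4 factors with 0.02. Sdha and Sdhaf2, a factor that serves it, were both called lower (-0.28 and -0.29). Sdhaf4, which also acts on Sdha, was not called (0.23). Complex III had 3 of 8 subunits fallen (Cyc1, Uqcrc1 and Uqcrc2, median over all 8 -0.17) and 2 of 6 factors (median -0.15), and complex IV 1 of 15 subunits (Cox5a, 6.67%, near the share of all genes, median over all 15 -0.03) and 1 of 15 factors (median -0.09). In complex V, 5 of 15 subunits fell (median -0.07), with the smallest p in Atp5f1d, Atp5f1b and Atp5pd, and 0 of 3 factors (median 0.01), where limma gave 0 factors also at an unadjusted p under 0.05. The difference between factors and subunits was not tested.

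**Figure D5:**
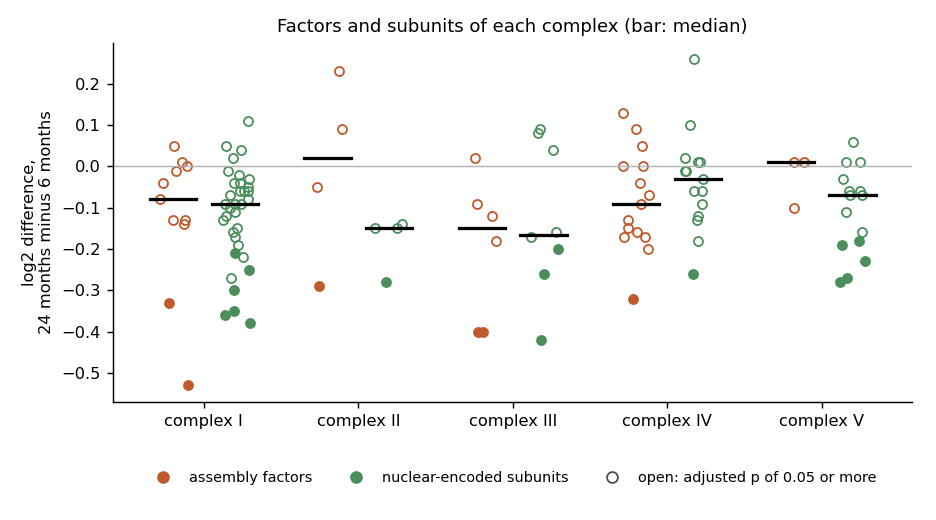
Log2 difference between 24 and 6 months (y axis) of each assembly factor (orange) and each nuclear-encoded subunit (green) of the 5 complexes, with filled points for adjusted p under 0.05 and bars for the median. Both kinds have more members below 0 than above it in complexes I, III and IV, and the factors of complexes II and V have medians of 0.02 and 0.01 beside subunit medians of -0.15 and -0.07.

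Other genes that serve assembly were examined in 3 further lists. Of 26 measured further assembly factors, 2 fell and none rose in limma (6 lower and 1 higher at an unadjusted p under 0.05), with a median of -0.06. The share called lower, 7.69%, is near the 5.09% of all genes. The 2 genes were Oxa1l, the insertase of the inner membrane (-0.29 ± 0.06 SE, adjusted p = 0.0130), and Tmem186, a further member of the complex I intermediate that holds Ecsit (-0.19 ± 0.06 SE, adjusted p = 0.0432). In Tmem186 the aged values, -0.29 to 0.00, and the adult values, 0.00 to 0.08, touched without overlap, and in Oxa1l they ran from -0.34 to -0.05 and from 0.05 to 0.28.

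Genes of iron-sulfur cluster assembly supply complexes I, II and III. Of 15 measured, 2 rose and none fell in limma, where 6.77% of all genes rose and 5.09% fell (3 higher and 3 lower at an unadjusted p under 0.05). The list as a whole had lower means for 9 of 15 and a median of -0.04. Iscu, the scaffold on which clusters are built, was at -0.14, -0.60, -0.37, -0.46 and -0.35 in adult replicates 1, 2, 3, 4 and 6. It was at 0.24, 0.21, 0.35, 0.14 and 0.53 in aged replicates 2 to 6, above every adult array. The difference was 0.68 ± 0.09 SE, or 60.2% higher (adjusted p = 0.00131), from 1 probe set of the brightest class. Gfer, also on this list, is the sulfhydryl oxidase of the import relay for small cysteine-motif proteins and not a builder of clusters. Gfer rose by 0.29 ± 0.08 SE (adjusted p = 0.0389), again with no overlap. Of 7 genes of copper supply none passed in limma, where 1 was higher and 0 lower at an unadjusted p under 0.05, with a median of -0.02 and differences between -0.10 and 0.27.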

How the data were processed

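Hearts of rats aged 6 and 24 months (n = 5 each) were profiled on Rat Genome arrays. Per the labels' protocols, RNA was extracted with TRIzol, amplified over a pair of cDNA cycles and biotin-labelled. The authors' deposited table holds signed values for 31042 probe sets, used as log2 values. For background correction, normalization and software, nothing is stated in the sources used here. The log base was inferred from how finely the values are stepped, as were the brightness classes, which are approximate. Every probe set has a median of 0 over the 10 arrays (tolerance 1e-06).

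Names came from the platform annotation, with symbols updated by gene identifier (RefSeq, GRCr8): 20826 had 1 gene symbol, 436 several, and 9780 none listed. Genes are means of their probe sets. The ages were compared in limma 3.58.1 (lmFit, eBayes; R 4.3.3) over 14217 genes and over probe sets, with Benjamini-Hochberg adjustment and no covariate, and the code was tested on simulated data. Arrays number 5 per age, which limits precision. Values of every array are given for factors that passed, did not overlap between ages or had the smallest p of their complex, and for Iscu, chosen after its values were seen. Of other lists, up to 3 genes per direction are named. Members and lists were chosen with earlier results of these data known. A mistaken entry was removed from the further assembly factors after fitting. Tables and plots used Python 3.11.15, pandas 2.3.3 and matplotlib 3.10.9. Alternatives were other scaling, probe-set rules, variance models, a replicate block and left-out arrays.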

Additional observations from a re-analysis of the deposited data

Results flagged for a closer look

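Within an age group, a single array was marked where its gap to the nearest array exceeded 0.71 of the group's range, the 95% critical value of Dixon's ratio for 5 samples. Of 78 groups checked for the factors 4 were marked, and chance marks about 1 in 20. Sdhaf3 was at -0.26 in aged replicate 3, with the other aged arrays between 0.06 and 0.15. Coa5 was at -0.28 in that same array, against -0.02 to 0.08. Lrpprc was at 0.15 in aged replicate 2, against -0.18 to -0.09. Ndufaf5 was at -0.10 in adult replicate 4, with the other adult arrays between 0.00 and 0.03. The mean of the adipocyte markers was 1.13 in adult replicate 2, against -0.23 to -0.05 in the other adult arrays.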

How the results depend on the processing

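Under 21 other settings, the 6 factors kept their direction. Ecsit and Uqcc1 passed in all 21, Sdhaf2 in 19, Ndufaf3 in 17, Cox10 in 14 and Bcs1l in 12. These counts include the other probe-set rules, which could not change the differences of these 6 factors and so do not test them. None of the 39 reversed while called on either side. The count of fallen factors was 6 with array medians centred, quantile normalization, other probe-set rules, robust variance or array weights, and 3 to 8 when single arrays were left out; the count of risen factors was 0 throughout, and the median difference stayed between -0.11 and -0.06 without single arrays. Called genes overall were 1686, and 988 to 1994 without single arrays. Without aged replicates 3 and 6 together, 2 factors and 1012 genes passed. For the 4 replicate numbers that both ages share, correlations of deviations were 0.0349 to 0.145, within the -0.18 to 0.241 of other pairs. Whether the arrays are paired by these numbers is not settled. With these numbers as a replicate block over 8 arrays, 4 factors fell (Bcs1l and Ndufaf3 lost) and 1069 genes were called. The same 8 arrays with no replicate block, a setting chosen after seeing the data, gave 3 and 929. As a random block over 10 arrays it gave 6 and 1821. The cause of the other changes was not tested.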
